A study of Rattus norvegicus with 174 samples.

Results

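Genes that mark T lymphocytes and natural killer (NK) cells, 9 in all, were followed in rats that had inhaled phosphine: Gzmb, Prf1, Nkg7, Klrd1, Cd8a, Cd4, Cd3e, Cd2 and Cd5. They were chosen by symbol, as 9 of the 13438 genes that the arrays measured with a probe set of a single named gene. Where several such probe sets carried a gene's symbol, the brightest of them, by its mean over the 174 arrays, stood for the gene. Adult male Sprague-Dawley rats of 300 to 400 g breathed phosphine (PH3), a fumigant gas, for 32.2 min at 660 ppm in a whole-body chamber, an exposure of 21252 ppm × min, which the labels put at 0.91 of the LCt50, the exposure that kills 50% of animals. Control rats breathed air at 0 ppm for the same time. Brain, heart, kidney, liver, lung and blood were taken at 1, 3, 6 or 24 h from 33 rats, and 174 single-colour Affymetrix arrays were hybridised. Lung, like the other solid organs, had 4 rats per exposure and time, except for 2 air rats at 6 h. Blood had 4 phosphine and 4 air rats at 1 h and at 3 h, 5 phosphine rats and 1 air rat at 6 h, and 2 phosphine rats with no air rat at 24 h. All rats were killed under ketamine and xylazine by exsanguination. Tissue RNA came from whole, cryopulverised organ.

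T cells recognise antigen through a receptor that signals through the CD3 chains, and the CD4 and CD8 coreceptors divide them into helper and cytotoxic classes. Cytotoxic T cells and NK cells kill through granules: perforin opens the target cell's membrane and granzymes enter to start cell death. Blood carries these cells in circulation, and the lung holds a large marginated pool in its capillaries as well as resident cells. In rats, NK cells also carry CD8α, and monocytes and macrophages also carry CD4, so neither gene marks 1 cell type there.

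Cd3e encodes the epsilon chain of CD3 and lies on chromosome 8 (54200617-54211770). Cd5 (chromosome 1, 216790245-216811209) encodes a receptor that dampens T cell receptor signals, and Cd2 (chromosome 2, 191399510-191412659) an adhesion receptor of T and NK cells. The coreceptor genes both lie on chromosome 4, Cd8a at 104924116-104928353 and Cd4 at 159355147-159381636. Klrd1, which encodes CD94, the partner chain of the inhibitory and activating NKG2 receptors, lies on the same chromosome at 164730833-164742539. Prf1 encodes perforin (chromosome 20, 29789040-29794550), Gzmb granzyme B (chromosome 15, 34459007-34462469) and Nkg7 a protein of cytotoxic granule membranes (chromosome 1, 102981497-102982564). Positions are those of the RefSeq annotation of GRCr8 and were looked up by symbol. The gene IDs found there were those of the array annotation for all 9.

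The start regions of Gzmb, Prf1 and Cd8a are shown because these 3 genes passed the test in lung at 3 h. Each run holds 250 bases before the gene's start and 50 from it, in the direction of transcription, from RefSeq's GRCr8 table, which matched 7 of the 9 genes. Capitals mark matches, on either strand, to the letters searched: GGTGTGA for T-box factors, TGTGGT for RUNX factors, AGGAAG for ETS factors and AGAACA for a glucocorticoid receptor half-site.
Gzmb, chr15:34462420-34462719, minus strand: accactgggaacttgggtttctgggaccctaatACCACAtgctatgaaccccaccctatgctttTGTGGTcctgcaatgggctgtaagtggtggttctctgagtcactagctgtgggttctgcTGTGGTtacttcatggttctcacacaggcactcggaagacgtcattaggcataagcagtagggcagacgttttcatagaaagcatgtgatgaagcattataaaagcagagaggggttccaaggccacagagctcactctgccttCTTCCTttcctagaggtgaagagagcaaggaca
Prf1, chr20:29788790-29789089, plus strand: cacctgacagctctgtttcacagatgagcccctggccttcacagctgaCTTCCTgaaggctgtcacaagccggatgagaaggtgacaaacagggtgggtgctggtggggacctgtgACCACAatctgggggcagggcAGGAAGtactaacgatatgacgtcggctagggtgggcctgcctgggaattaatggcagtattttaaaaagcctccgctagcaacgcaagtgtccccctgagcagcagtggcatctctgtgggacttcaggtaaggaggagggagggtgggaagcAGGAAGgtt
Cd8a, chr4:104923866-104924165, plus strand: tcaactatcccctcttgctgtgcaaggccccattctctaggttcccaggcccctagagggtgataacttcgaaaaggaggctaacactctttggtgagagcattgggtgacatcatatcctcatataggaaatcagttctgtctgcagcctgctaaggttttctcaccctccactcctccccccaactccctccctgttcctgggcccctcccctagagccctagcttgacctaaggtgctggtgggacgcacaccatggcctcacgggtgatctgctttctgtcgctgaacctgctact

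The Gzmb window held 3 RUNX matches, whose first bases lay at −217, −186 and −127 from the gene's start, and 1 ETS match at 17 bases after it. The Prf1 window held 1 RUNX match at −134 and 3 ETS matches, at −202, −113 and 41. The Cd8a window held none of the 4 motifs, which says only that these letters are not in these bases. No matches overlapped each other, and no window held the T-box or glucocorticoid letters. Among all 33469 start regions in the table, 17.3% held the RUNX letters, 34.5% the ETS letters, 3.83% the T-box letters and 20.7% the glucocorticoid letters.

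Some arrays held transcripts of another organ. An array was set apart where a list of another organ's genes lay 4 log2 units or more above its tissue's median. This held for 3 of 30 lung arrays: the phosphine array of Rat716 at 1 h (hepatocyte genes, 7.87 above), the phosphine array of Rat729 at 3 h (skeletal muscle genes, 5.42 above) and the air array of Rat733 at 3 h (skeletal muscle genes, 6.45 above). The air lung array of Rat738 at 3 h stayed under the limit (skeletal muscle genes, 3.64 above) and was kept. No blood array was set apart. Lung results are therefore given with and without these 3 arrays.

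In air-exposed rats the genes were mostly genes of blood and lung. Cd3e had a log2 signal of 9.45 ± 0.35 (SD, n = 9) in blood and 6.11 ± 0.35 (n = 14) in lung. Prf1 reached 9.10 ± 0.30 in blood and 8.39 ± 0.47 in lung, and Cd8a 8.73 ± 0.26 and 5.65 ± 0.22. The blood means of Cd2, Nkg7, Cd5, Klrd1 and Cd4 were 8.17, 7.95, 7.92, 6.63 and 5.46. Array signals of different probe sets are not on one scale, so only the tissues are ranked for each gene. Of the 9 genes, 8 were highest in blood. Gzmb was highest in lung, at 5.53 ± 0.68, against 4.34 ± 1.16 in blood, and 1 SD around each mean overlapped the other. Gzmb in blood ran from 3.34 to 6.49 in air rats, the widest spread of the 9 genes there. Cd4 in lung was 3.52 ± 0.43, below its means in liver (3.94), kidney (3.82) and heart (3.75), which lie within 1 SD of each other. The brain had the lowest mean for all 9 genes, between 2.32 and 3.20, where the array's non-specific control probe sets had a median of 2.34.

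**Figure D1:**
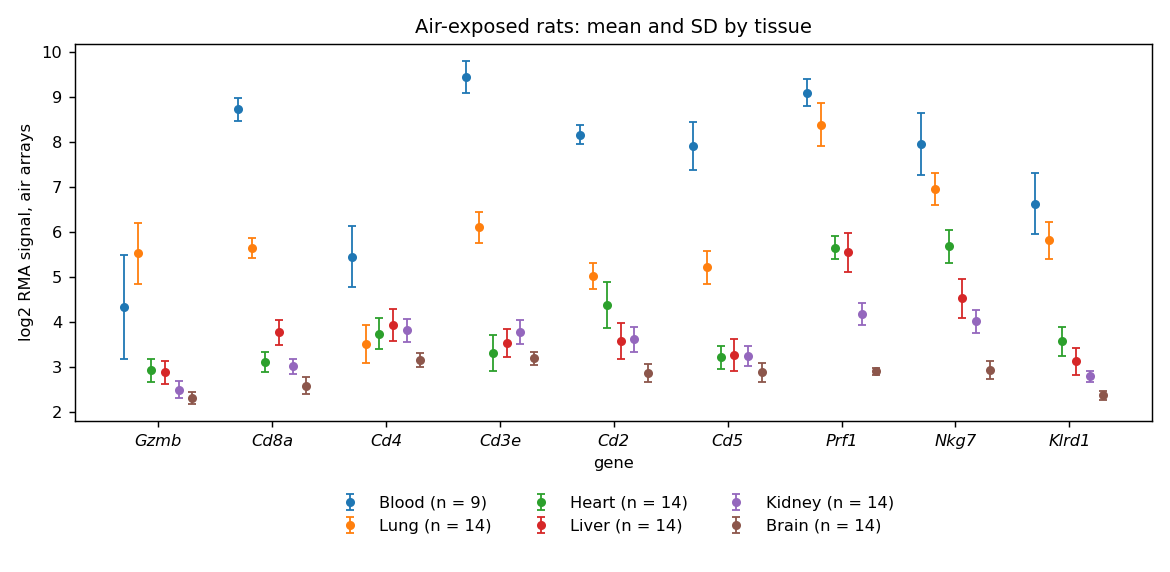
Log2 RMA signal (vertical axis) of the 9 genes in air-exposed rats, with mean and SD over arrays for each tissue. Blood is the highest tissue for every gene but Gzmb, which has its highest mean in lung (5.53), and brain is the lowest throughout.

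In blood, no member passed the threshold at 1 h or at 3 h, and the values nearest to it were those of Cd4, Cd8a and Cd3e at 3 h, each lower after phosphine. A gene counted as changed where limma's Benjamini-Hochberg adjusted p over all 13438 genes was under 0.05. At 3 h, 8 of the 9 genes had a lower mean in phosphine than in air rats, while 55.1% of all genes did. The median log2 difference was −0.69 for the 9 genes and −0.07 for all genes. The 0 members changed compare with 6.6% of all genes, 5.8% lower and 0.804% higher. At an unadjusted p under 0.05 there were 4 members, against 22.4% of all genes. In whole blood and whole organ, fewer cells of a type and less RNA per cell cannot be told apart.

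Cd8a in blood at 3 h was 7.52, 7.97, 8.01 and 8.20 in the phosphine rats and 8.41, 8.79, 8.87 and 8.89 in the air rats. All 4 phosphine values lay under all 4 air values. The log2 difference was −0.82 ± 0.26 (SE; adjusted p = 0.0554).
Cd3e was 8.43, 9.0, 9.07 and 9.08 after phosphine and 9.39, 9.62, 9.75 and 10.02 in air. These groups did not overlap either, with Rat729 the lowest, and differed by −0.80 ± 0.26 (adjusted p = 0.0586).
Groups with every phosphine array below every air array were found for 2 of the 9 genes, Cd8a and Cd3e, and for 11.7% of all genes.
Cd4 was 3.70, 4.16, 4.72 and 5.82 after phosphine and 5.49, 5.50, 6.33 and 6.54 in air. One phosphine rat, Rat731, lay among the air rats. The difference of −1.37 ± 0.43 (adjusted p = 0.0544) was the furthest from 0 among the 9 genes.
Klrd1 differed by −1.04 ± 0.53 (adjusted p = 0.25), with Rat729 at 3.93 and the other phosphine rats between 5.73 and 6.51. Cd5 differed by −0.69 ± 0.28 (adjusted p = 0.144). The granule genes Gzmb and Prf1 each stood at −0.16 (95% intervals −1.17 to 0.84 and −0.83 to 0.52), Cd2 at −0.22 and Nkg7 at 0.33 ± 0.37. Other probe sets of Gzmb lay above 0, at 0.77 ± 0.34 (adjusted p = 0.171) for the brighter 1370628_PM_at and 0.26 ± 0.34 for 1371126_PM_x_at, so the count of 8 genes below 0 depends on the probe set.

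At 1 h in blood no member changed, against 0.00744% of all genes. The members' median was 0.10 and that of all genes −0.03. Nkg7 was 8.06, 8.40, 9.02 and 9.30 after phosphine and 6.85, 7.84, 8.18 and 8.24 in air, a difference of 0.92 ± 0.37 (adjusted p = 0.538), and was the 1 member with an unadjusted p under 0.05, against 7.72% of all genes. Klrd1, the other NK gene, lay on the other side of 0, at −1.01 ± 0.53 (adjusted p = 0.68). Its phosphine values of 4.10, 4.88, 5.62 and 6.40 reached into the air values of 5.73, 5.78, 6.50 and 7.04. Cd4 was −0.85 ± 0.43 (adjusted p = 0.663), while Cd8a (0.24) and Cd3e (0.10) lay near 0.

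Over the mean of the 1 h and 3 h differences, Cd4 fell, by 1.11 on the log2 scale (SE 0.30, adjusted p = 0.0333), a 2.16-fold lower signal. It was 1 of 9 members called lower, against 4.87% of all genes, and no member was called higher, against 0.647%. That 0 depends on the probe set: the brighter Gzmb set 1370628_PM_at, listed under 2 gene IDs, was called higher (0.84 ± 0.24, adjusted p = 0.0408). The call of Cd4 ended in 12 of 25 other settings. Leaving out any one of the phosphine rats Rat713, Rat716, Rat728 and Rat729 or of the air rats Rat720, Rat727, Rat732 and Rat738 gave between −0.96 and −1.10 with adjusted p between 0.0518 and 0.0778. The array of Rat713 had the highest 3′ minus 5′ signal difference of the control transcripts, a sign of RNA quality, at 1.657 against at most 1.116 in the other blood arrays. It also had the lowest Cd4 (3.62) and Cd2 (7.09) of all blood arrays, and without it Cd4 stood at −0.99 (adjusted p = 0.0755). The part of RNA quality in this value was not tested further. Klrd1 (−1.03 ± 0.37, adjusted p = 0.106), Cd5 (−0.51 ± 0.20, adjusted p = 0.14) and Nkg7 (0.63 ± 0.26, adjusted p = 0.165) did not pass. Cd8a, Cd3e, Cd2, Gzmb and Prf1 ranged from −0.35 to 0.19.

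The 75th percentile of the blood arrays at 3 h ran from 5.595 to 5.678 after phosphine and from 5.826 to 5.924 in air, without overlap. At 1 h it ran from 5.656 to 5.766 in air and from 5.613 to 5.732 after phosphine. The 6 h air array lay at 5.666. Later phosphine arrays ran from 5.655 to 5.952 at 6 h and from 5.79 to 5.799 at 24 h. All air arrays at 3 h thus lay above all other air arrays. In the 1 h air rats Cd3e was 8.97 to 9.63, Cd8a 8.3 to 9.09 and Cd4 4.72 to 5.74. With the 75th percentile as a covariate no gene of the 13438 was called at 3 h, Cd3e stood at −0.13, Cd8a at −0.52 and Cd4 at −1.38. Because the percentile separates the exposures at 3 h, this fit cannot tell array brightness from exposure there. In 2 settings with other moderation or weights (a trended robust fit and array weights), Cd8a and Cd3e were called lower, with adjusted p of 0.0172 to 0.0432. With quantile normalisation within blood Cd8a stood at −0.39 and Cd3e at −0.49. Leaving out the dimmest genes called Cd8a, Cd3e and Cd4 (adjusted p 0.034 to 0.0386).

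At 6 h the comparison rests on 1 air rat, and 0 members changed, against 0.0521% of all genes, while 2 had an unadjusted p under 0.05, against 10.2%. Klrd1 was 8.0 to 8.30 in the 5 phosphine rats and 7.83 in the air rat. Cd5 was 7.89 to 8.58 against 7.26, a difference of 1.00 ± 0.44 (adjusted p = 0.427), and Gzmb 4.10 to 5.73 against 6.49, at −1.59 ± 0.75 (adjusted p = 0.472). At 24 h, with no air rat, the 2 phosphine rats had 9.14 and 8.49 for Cd8a, 9.78 and 9.23 for Cd3e, and 3.64 and 5.20 for Cd4. No member passed the moderated F test of a difference of the effect between 1, 3 and 6 h, where 0.268% of all genes did. Cd8a had the smallest adjusted p, 0.178.

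**Figure D2:**
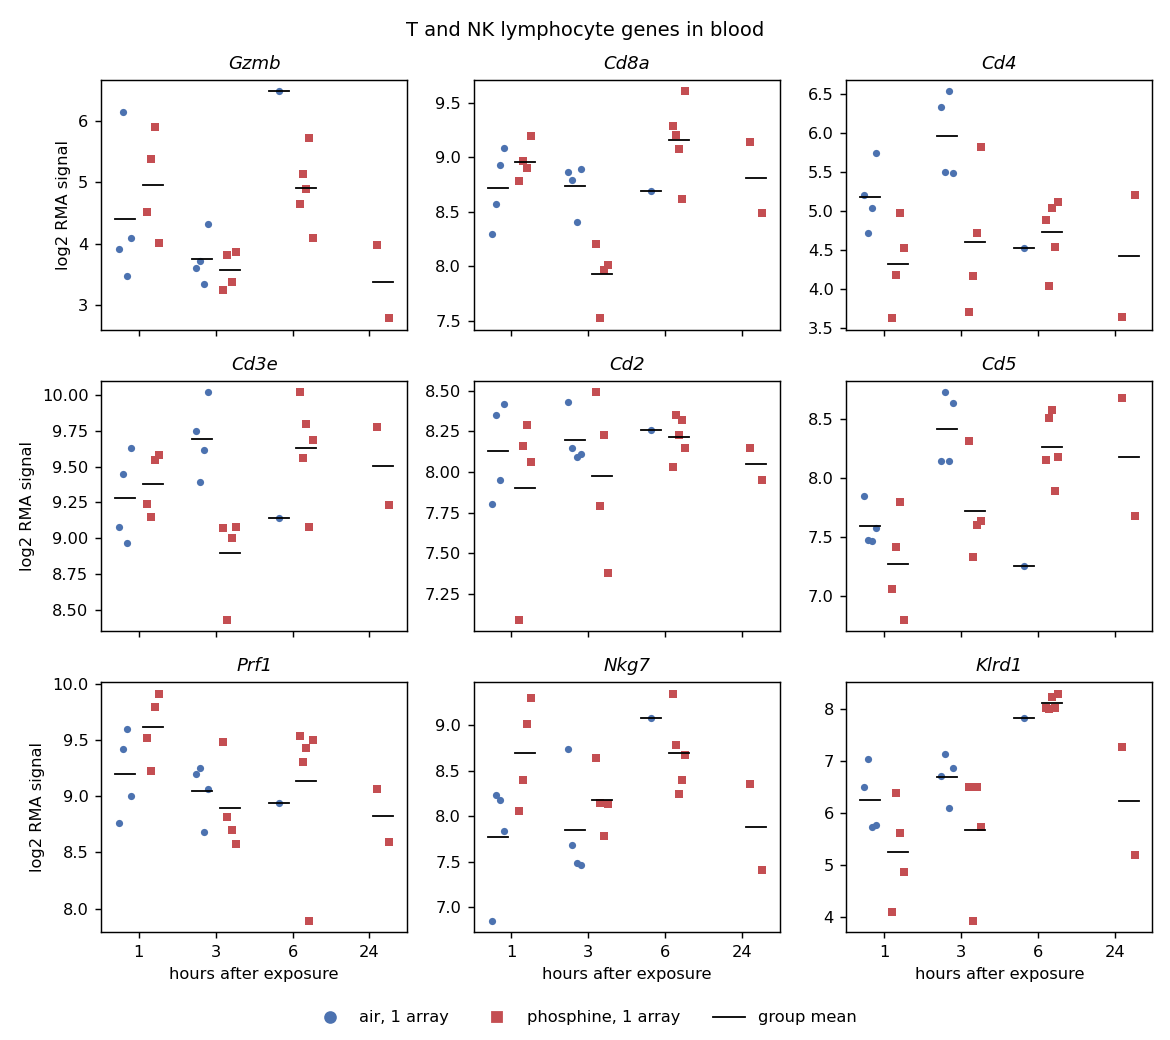
Log2 RMA signal in blood by hours after exposure, 1 point per array, with group means as bars; each panel has its own vertical scale. Phosphine arrays at 3 h lie below all air arrays of the same hour for Cd8a (7.52 to 8.20) and Cd3e (8.43 to 9.08). The 6 h groups have a single air array.

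Of the wider T and NK lists in blood at 3 h, receptor signalling, factors and traffic held calls, and the granule and NK receptor lists none. Among all genes 5.8% were called lower and 0.804% higher. At those shares a short list may hold no call. Of 17 measured T cell receptor signalling genes, 4 fell and 0 rose. Sh2d1a, an adaptor of SLAM receptors, fell by 1.96 (SE 0.49, adjusted p = 0.0218), Cd8b, the partner chain of CD8α, by 1.11, Cd3g by 0.94 and Lat, the scaffold downstream of the receptor, by 0.89. Their list median was −0.76. The list's mean level per array was 6.46 to 7.27 after phosphine and 7.51 to 7.76 in air. In air rats at 1 h it was 6.75 to 7.34, and in the 6 h air rat 7.02. Of 12 transcription factors, 2 fell: Ets1 by 1.42 and Klf2, which sustains naive T cell circulation, by 1.27 (adjusted p = 0.0146). Of 12 traffic and cytokine receptor genes, 3 fell: S1pr1, the receptor with which lymphocytes leave lymphoid organs (−1.74), Cd69 (−1.52) and Il2rg, the shared gamma chain of cytokine receptors (−1.41, adjusted p = 0.0129). None of the 15 granule genes (median 0.14) or of the 13 NK receptor genes (median 0.07) passed. At an unadjusted p under 0.05 there were 4 and 0 of them, against 22.4% of all genes. Whether these lists differ from each other was not tested.

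Over the mean of 1 and 3 h, Gzma was 0.93 ± 0.37 (adjusted p = 0.139), Ctsw 0.75 ± 0.30 (adjusted p = 0.149), and Ctsc, which activates granzymes, −0.71 ± 0.27 (adjusted p = 0.129). The NK receptor Klrg1 was 0.98 ± 0.39 (adjusted p = 0.15) and Klrk1 −0.52 ± 0.29 (adjusted p = 0.327). Gata3 (−1.09), Lat (−0.59), Klf2 (−0.88) and S1pr1 (−1.30) passed, while Bcl11b (−1.25, adjusted p = 0.0561), Sh2d1a (−1.11, adjusted p = 0.0615) and Cd69 (−0.86, adjusted p = 0.0631) did not.

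Other cell types' genes moved beside them. At 3 h, 5.8% of all genes were called lower and 0.804% higher. All 6 measured B cell genes fell at 3 h, with a median of −1.63, and their mean level per array was 6.41 to 7.34 after phosphine and 7.96 to 8.87 in air. Of 9 neutrophil genes 1 rose, Il1r2, by 2.37 ± 0.37 (adjusted p = 0.00299), and the list's mean level was 6.94 to 7.65 against 6.16 to 6.82. No gene of the 11 monocyte genes passed (median −0.18, levels 5.37 to 5.84 against 5.43 to 5.99). None of the 5 red cell or 6 platelet genes passed. Shares of these cells were not measured, and their part in the members' values was not tested.

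**Figure D3:**
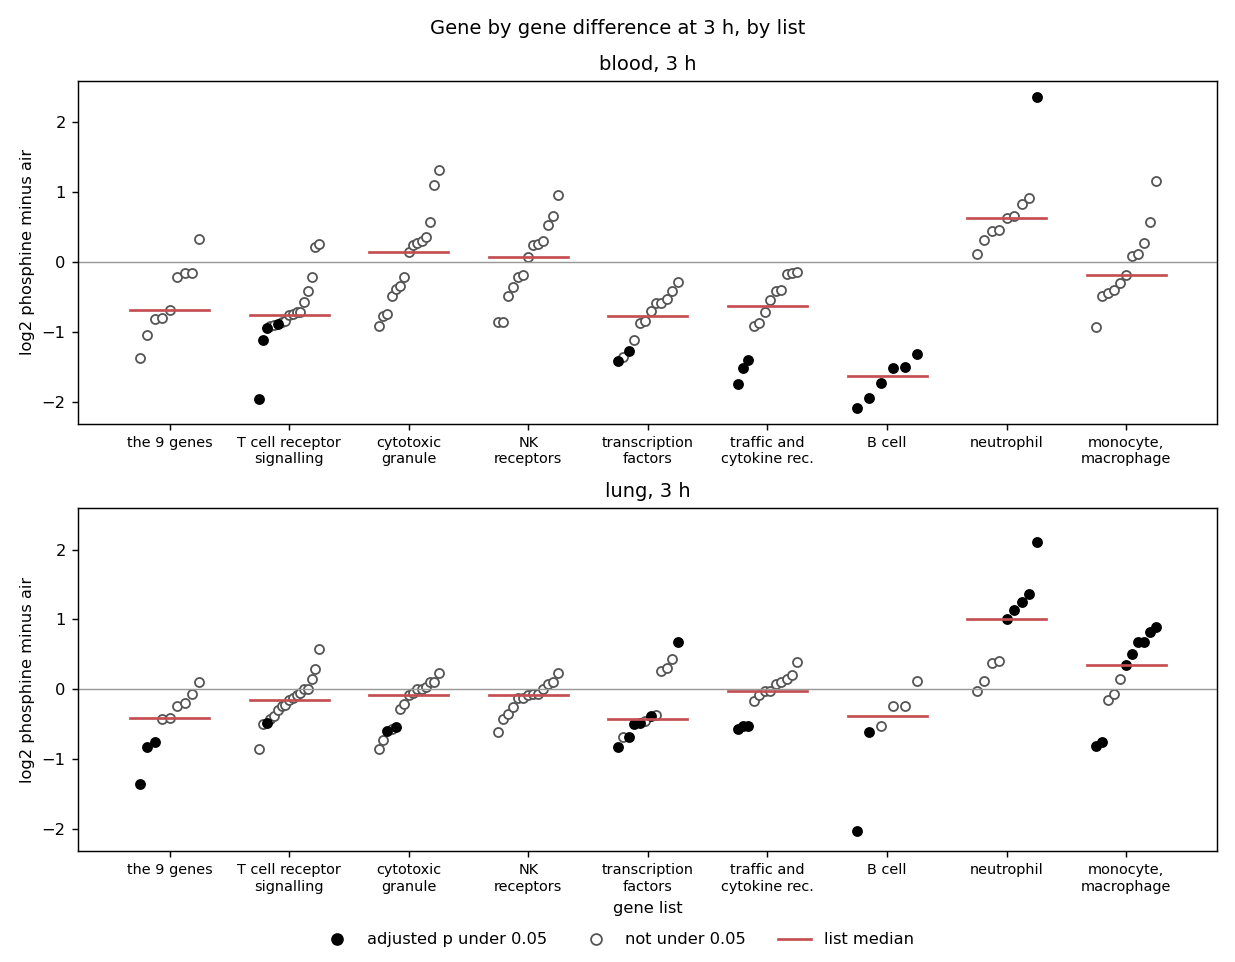
Log2 phosphine minus air at 3 h (vertical axis) of every gene of each list, in blood and lung; filled points have an adjusted p under 0.05 and bars are list medians. In blood the B cell list lies lowest (median −1.63) and the 9 genes have a median of −0.69; in lung they have −0.41, with 3 filled.

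In lung, the cytotoxic genes Gzmb and Prf1 and the coreceptor gene Cd8a fell at 3 h. They were 3 of the 9 genes, against 5.76% of all genes called lower, and no member was called higher, against 5.84%. The count of 3 depends on the probe set of Gzmb, whose values are given below. Of the 9 genes, 8 lay below 0, where 47.8% of all genes did, and the medians were −0.41 and 0.01. Without the 3 arrays that held another organ's transcripts the members' median was −0.22, again with 8 below 0. All 3 calls ended without these arrays, where 4.37% of all genes were called lower.

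Gzmb at 3 h was 4.24, 4.34, 4.56 and 4.92 in phosphine lungs and 5.15, 5.30, 6.04 and 6.99 in air lungs. The groups did not overlap, and the air array of Rat733, among those set apart, was the highest. Gzmb fell by 1.36 (SE 0.37, adjusted p = 0.0175), 2.56-fold. Without Rat733 the difference was −0.98 (adjusted p = 0.0852), and without the 3 arrays −0.89 ± 0.35 (adjusted p = 0.125), with the groups still apart. Over all arrays, the brighter probe set 1370628_PM_at gave −0.85 ± 0.32 (adjusted p = 0.089) and the dim 1371126_PM_x_at 0.00 ± 0.15, so the call depends on the probe set.

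Cd8a was 4.76, 4.91, 4.97 and 5.31 after phosphine and 5.56, 5.64, 5.88 and 5.90 in air. No value of one group reached the other. It fell by 0.76 (SE 0.20, adjusted p = 0.0136), 1.69-fold, and passed with any single array of the 2 groups left out (adjusted p 0.00934 to 0.0458). Without the 3 arrays it stood at −0.70 ± 0.24 (adjusted p = 0.073), again with no overlap.
Groups with every phosphine array lower were found for 2 of the 9 genes and for 9.21% of all genes.

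Prf1 was 7.38, 7.53, 7.79 and 7.85 after phosphine and 7.84, 8.07, 8.73 and 9.21 in air, Rat733 again the highest. The groups met at 7.84 and 7.85. Prf1 fell by 0.82 (SE 0.26, adjusted p = 0.0427), and the call ended without any one of 5 arrays, those of the phosphine rats Rat729, Rat730 and Rat731 and of the air rats Rat733 and Rat739 (adjusted p 0.0578 to 0.18). Without Rat733 it was −0.58, and without the 3 arrays −0.54 ± 0.27 (adjusted p = 0.244). Fitted on the 3 h groups alone, Cd8a passed and Gzmb (adjusted p = 0.0511) and Prf1 (adjusted p = 0.0932) did not.

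The NK genes Nkg7 (−0.43 ± 0.23, adjusted p = 0.256) and Klrd1 (−0.41 ± 0.24, adjusted p = 0.32) did not pass, and stood at −0.18 and −0.17 without the 3 arrays. Of the pan-T genes, Cd5 was at −0.24, Cd3e at −0.19 ± 0.20 (95% interval −0.60 to 0.23) and Cd2 at −0.07, and without the 3 arrays at −0.22, −0.36 and −0.03. Cd4 was 3.30 to 3.66 after phosphine and 3.10 to 3.56 in air, at 0.10 ± 0.25.

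At 1 h no lung member changed, by limma, against 5.8% of all genes, and 0 had an unadjusted p under 0.05, against 18.2%. Gzmb was 4.83, 5.10, 6.13 and 6.29 after phosphine and 4.42, 4.92, 4.92 and 5.27 in air, a difference of 0.70 ± 0.37 (adjusted p = 0.316), and 0.96 ± 0.33 (adjusted p = 0.104) without the 3 arrays set apart. At 6 h no member changed, against 0.0967% of all genes, and 1 had an unadjusted p under 0.05, against 8.8%. Cd5 was −0.68 ± 0.26 (adjusted p = 0.409), 4.82 to 5.31 after phosphine against 5.63 and 5.90 in air. At 24 h no member changed, against 0.00744% of all genes, and 2 had an unadjusted p under 0.05, against 3.16%. Cd8a was then 5.74, 6.03, 6.46 and 6.96 after phosphine and 5.58, 5.60, 5.61 and 5.64 in air. All phosphine values lay above all air values, as for 1 of 9 members and 1.24% of all genes, at 0.69 ± 0.20 (adjusted p = 0.872). Cd3e was 0.48 ± 0.20 (adjusted p = 1). Over the mean of 1 and 3 h no member passed, against 12.3% of all genes, and 2 had an unadjusted p under 0.05, against 25%. Cd8a was −0.33 ± 0.14 (adjusted p = 0.137).

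The difference between phosphine and air itself changed with time for Cd8a in lung (moderated F = 9.09, adjusted p = 0.012), 1 of 9 members, against 6.38% of all genes. Between 3 h and 24 h it rose by 1.44 ± 0.28 (adjusted p = 0.00376, where 3.86% of all genes passed), from below to above the air rats. Without the 3 arrays these values were 1.39 ± 0.32 (adjusted p = 0.0172) and, for the F test, an adjusted p of 0.0496. For Gzmb the F test gave an adjusted p of 0.0669. Its difference between 1 h and 3 h was −2.06 ± 0.52 (adjusted p = 0.0287, where 3.28% of all genes passed), and −1.85 ± 0.48 (adjusted p = 0.0475) without the 3 arrays. Both exposures differed between these times. Air values of Gzmb ran from 4.42 to 5.27 at 1 h and from 5.15 to 6.99 at 3 h. Phosphine values ran from 4.83 to 6.29 and from 4.24 to 4.92.

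**Figure D4:**
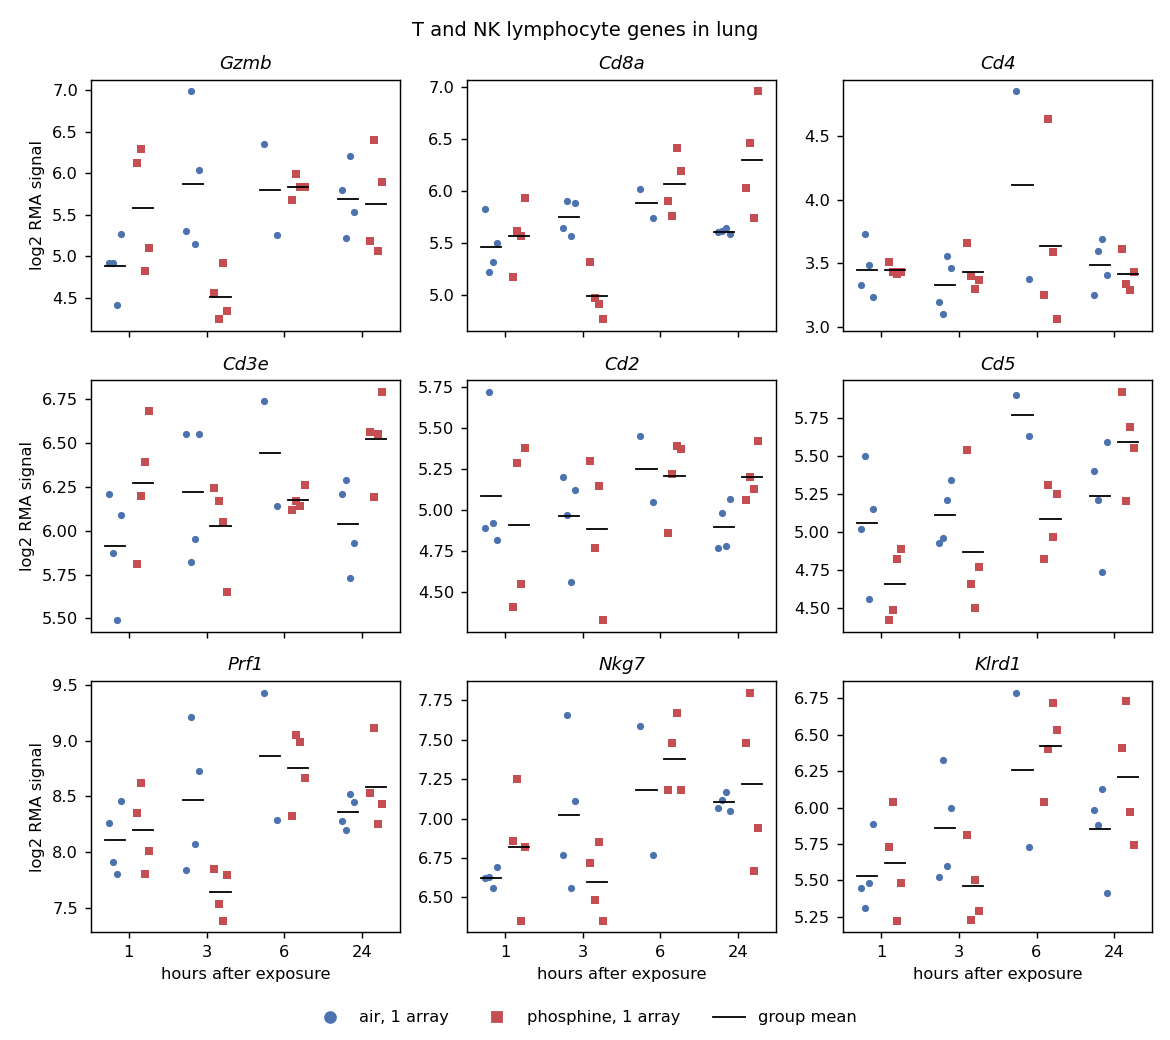
Log2 RMA signal in lung by hours after exposure, 1 point per array, with group means as bars; each panel has its own vertical scale. At 3 h all phosphine arrays lie under all air arrays for Gzmb (4.24 to 4.92) and Cd8a (4.76 to 5.31), and at 24 h the Cd8a phosphine arrays (5.74 to 6.96) lie above the air arrays.

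Of the wider lists in lung at 3 h, 4 of the 5 T and NK lists held calls, and differences between the lists were not tested. Among all genes 5.76% were called lower and 5.84% higher. The 1 call among 17 receptor signalling genes is near that share. Of 12 factors, 5 fell and 1 rose. Runx3, a factor of CD8 T and NK cells, fell by 0.83 ± 0.17 (adjusted p = 0.00197), Bcl11b by 0.68 and Tox by 0.50. Nfil3, which NK cells need to develop and which many other cells express, rose by 0.68 ± 0.22 (adjusted p = 0.0455). Of 15 granule genes 2 fell, Xcl1, a chemokine of NK and CD8 T cells, by 0.60 and Serpinb9, an inhibitor of granzyme B, by 0.54 (adjusted p = 0.000134). Lck, the kinase of the CD4 and CD8 coreceptors, was the 1 of 17 receptor signalling genes that fell, by 0.48. Itgal fell by 0.57, Cxcr4 by 0.53 and Cd69 by 0.53, 3 of 12 traffic genes, and none of 13 NK receptor genes passed, with 1 at an unadjusted p under 0.05. The list medians were −0.15 for receptor signalling, −0.08 for granule and for NK receptor genes, −0.42 for factors and −0.02 for traffic genes. Without the 3 arrays, Ets1, Runx3, Serpinb9, Cd69 and Cxcr4 passed, all lower, and no gene of the 5 lists passed in the other direction. Of all genes 4.37% were then called lower.

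At 1 h, Nfil3 (1.24 ± 0.22, adjusted p = 0.000849), S1pr1 (0.59) and Cd44 (0.31) rose and Ets1 fell by 0.37, while no receptor signalling, granule or NK receptor gene passed. Of all genes 5.8% passed at 1 h, in either direction. Without the 3 arrays the NK receptor gene Klrg1 was called higher and the call of Ets1 ended. At 6 and 24 h 0 genes of these lists passed, against 0.0967% and 0.00744% of all genes. Over the mean of 1 and 3 h, Gzma stood at −0.65 ± 0.23 (adjusted p = 0.072) and Faslg at −0.25 ± 0.19 (adjusted p = 0.459), Fyn rose by 0.45, a call that ended without the 3 arrays, and Klrg1 stood at 0.31 ± 0.16 (adjusted p = 0.247).

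In the same 3 h lungs, where 5.84% of all genes were called higher and 5.76% lower, 5 of 9 neutrophil genes rose (median 1.01). Their mean levels were 5.94 to 6.32 after phosphine and 4.95 to 5.46 in air. Of 11 monocyte and macrophage genes 6 rose and 2 fell (levels 7.58 to 7.67 against 7.35 to 7.58). Of 6 B cell genes 2 fell, Bank1 (−2.03) and Blk (−0.61), with levels of 5.29 to 5.95 against 5.81 to 6.40. None of the 5 red cell genes passed (levels 5.06 to 5.45 against 4.65 to 5.02). Without the 3 arrays, 3 neutrophil genes rose, 4 monocyte and macrophage genes rose and 1 fell, and 3 B cell genes fell. There 8.22% of all genes were called in either direction, and 4.37% lower. The part of these cells in the members' values was not tested.

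Between blood and lung, the members' share of calls was near that of all genes. Cd4, the 1 member called, was near background in lung: its lung arrays at 3 h lay between 3.10 and 3.66, where its brain mean was 3.16 and the lung median of all probe sets 4.56. A fall of Cd4 in lung may not have been measurable there. At 3 h the blood minus lung difference of the phosphine effect on Cd4 was −1.47 ± 0.49 (adjusted p = 0.0422), 1 of 9 members, where 11.8% of all genes passed. Over the mean of 1 and 3 h it was −1.16 ± 0.35 (adjusted p = 0.0267, where 9.29% passed). Both calls ended without the 3 lung arrays set apart (−1.40, adjusted p = 0.11, and −1.13, adjusted p = 0.0657). The 3 h call also ended without any one of Rat728, Rat729, Rat730, Rat732, Rat733 and Rat738 (−1.55 to −1.09, adjusted p 0.0566 to 0.162), and the call over the mean without any one of Rat713, Rat727, Rat728, Rat729, Rat732 and Rat738 (−1.10 to −0.97, adjusted p 0.0509 to 0.0649). The difference for Gzmb at 3 h lay on the other side of 0, at 1.19 ± 0.61 (adjusted p = 0.206), as did Nkg7 (0.76 ± 0.43, adjusted p = 0.252) and Prf1 (0.67 ± 0.41, adjusted p = 0.309). Cd8a differed by −0.06 ± 0.31 (adjusted p = 0.934), with −0.82 in blood and −0.76 in lung. Cd5 at 6 h, with 1 air blood array, was 1.68 ± 0.48 apart (adjusted p = 0.053, where 1.74% passed). At 1 h no member passed, against 0.439% of all genes, with Klrd1 at −1.10 ± 0.58 (adjusted p = 0.48).

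Other probe sets of 3 members gave further readings. A second Gzmb probe set, 1370628_PM_at, is listed under 2 gene IDs of that symbol and was therefore not the gene's main one, 1379794_PM_at, although it was brighter. In blood it rose, by 0.84 ± 0.24 over the mean of 1 and 3 h (adjusted p = 0.0408), where the main set gave 0.19 ± 0.34. In lung at 3 h it stood at −0.85 ± 0.32 (adjusted p = 0.089). Another, 1371126_PM_x_at, shared with another gene, was 2.49 after phosphine and 2.48 in air in lung at 3 h, near the non-specific sets, and was called higher in lung at 1 h (0.49 ± 0.15, adjusted p = 0.0458). A second Cd8a set, 1369877_PM_at, fell by 0.64 in lung at 3 h (SE 0.18, adjusted p = 0.0217) and stood at −0.77 ± 0.58 in blood (adjusted p = 0.472). The dimmer set 1395116_PM_at stood at −0.21 ± 0.19 in lung. A second Cd3e set, 1389997_PM_at, was −1.21 ± 0.42 in blood at 3 h (adjusted p = 0.0797) and 0.16 ± 0.21 in lung.

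In heart, liver, kidney and brain, 1 member passed at 1 time, Cd8a in kidney. At 1, 3, 6 and 24 h, 3.12%, 6.39%, 0.35% and 0% of all genes passed in kidney, 1.33%, 3.33%, 0.35% and 0.0819% in heart, 0.335%, 3.85%, 0.223% and 0% in liver, and 0.149%, 0.506%, 0% and 0% in brain. Cd8a fell in kidney at 1 h, by 0.39 (SE 0.10, adjusted p = 0.0236), against 0.997% of all genes called lower. Its values were 2.55, 2.71, 2.75 and 2.93 after phosphine and 3.04, 3.07, 3.10 and 3.29 in air. They did not overlap, as for 3.25% of all genes with every phosphine array lower, and all were under the kidney's median of all probe sets, 4.41. Without the air array of Rat720, which held hepatocyte transcripts, Cd8a stood at −0.40 ± 0.11 (adjusted p = 0.0479). In heart at 1 h Nkg7 was 5.40, 6.31, 6.32 and 6.46 after phosphine and 4.91, 5.05, 5.58 and 5.68 in air, a difference of 0.82 ± 0.22 (adjusted p = 0.0593). Heart arrays of Rat712 at 1 h and of Rat729, Rat741, Rat749 and Rat760 at later times held another organ's transcripts. The fit without all of these arrays gave 0.76 ± 0.23 for Nkg7 at 1 h (adjusted p = 0.144). In liver the 9 genes had a median of −0.34 at 24 h, between −0.62 and 0.52, with a smallest adjusted p of 0.634. Without the liver arrays that held another organ's transcripts, that of Rat741 at 24 h among them, the median was −0.29. In brain they stayed between −0.22 and 0.32 at all times, levels near background.

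**Figure D5:**
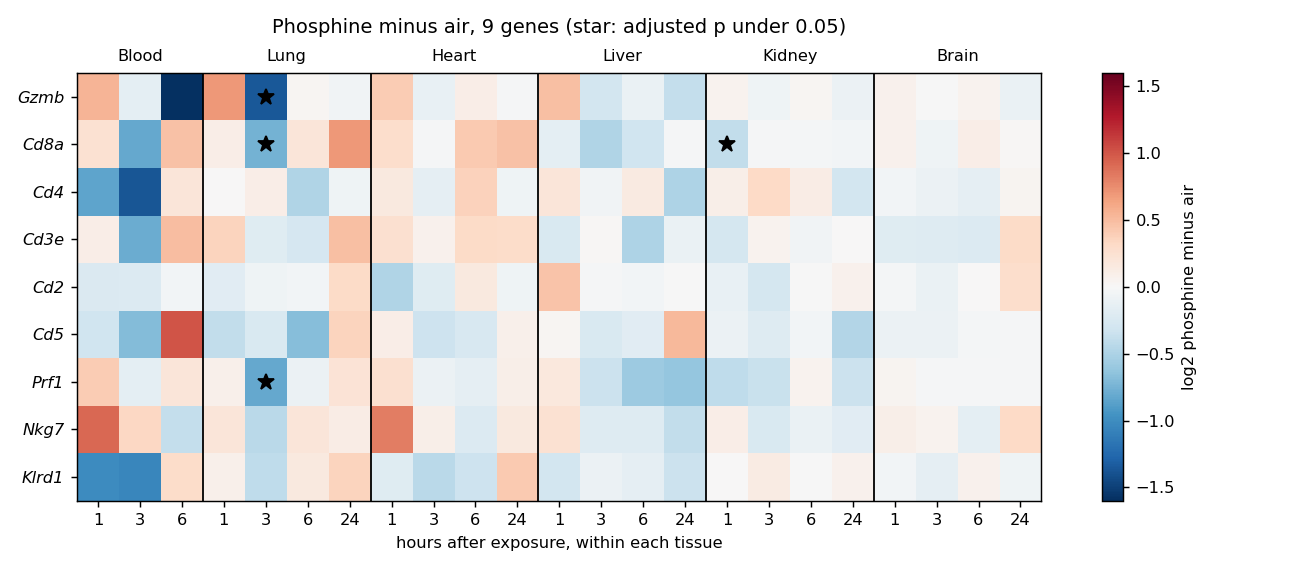
Log2 phosphine minus air (colour, red higher and blue lower after phosphine) of the 9 genes by tissue and hour; stars mark an adjusted p under 0.05. Stars stand at Gzmb, Cd8a and Prf1 in lung at 3 h and at Cd8a in kidney at 1 h.

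The members did not vary as 1 block. Over the 30 lung arrays, the 4 genes Gzmb, Prf1, Nkg7 and Klrd1 had pairwise Pearson correlations of 0.72 to 0.90. Over the 24 blood arrays the same pairs gave −0.06 to 0.51, while Cd8a and Cd3e correlated at 0.75. These arrays share tissue, groups and normalisation, and the correlations are descriptions. The genes most like the mean of the 9 scaled members over the lung arrays were Gzmm, a granzyme (r = 0.853), Coro1a (0.809), Nckap1l (0.805), Plac8, Cd247, the zeta chain of the T cell receptor complex, Irf5, Txk, Ccl5, Gng2 and Spn (0.761). Over the blood arrays they were Serpinb6b (r = 0.88), Tbc1d15, Gpr89b, Rpl3, Snrpe, Mrps33, Ctnnb1, Gsto1, Tvp23b and Cd3g (0.834).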

How the data were processed

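The authors deposited log2 signals of 31139 probe sets on 174 arrays, made with RMA in Partek per the submitters' processing notes (no version is named there). RMA sets arrays to a shared distribution, so the values are relative, and whether tissues were normalised together is not given in the sources used here. The values ran from 1.74 to 14.13 and were used as deposited. The platform annotation gave 1 gene for 19063 probe sets, several for 572 and none for 11407. The 97 control probe sets were left out. Each of 13438 genes was represented by its brightest single-gene probe set, by the mean of the 174 arrays (3985 genes had several). The 9 members and the gene lists were chosen with earlier results of these data known.

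Each tissue was fitted with limma 3.58.1 in R 4.3.3, with a mean per exposure and time, and phosphine was compared with air at each time and over the mean of 1 and 3 h. The blood minus lung difference was tested in 1 fit of both tissues, and differences between times by contrasts and the moderated F test. All p-values are two-sided, moderated by empirical Bayes and adjusted by Benjamini-Hochberg over all 13438 genes, with a threshold of 0.05. The 1 air blood array at 6 h was assumed to vary like the other groups. The number of arrays limits the precision, and ± is the SE of a difference or the SD of a level. The fits were tested on simulated data.

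Besides the members, up to 4 called genes per list with the largest change were eligible to be named. In the T and NK lists so were up to 3 with the largest mean change over 1 and 3 h and a group mean above the median of all probe sets. Likeness was Pearson's r with the mean of the 9 scaled members. The alternatives tried were normalisation, a filter on dim genes, probe sets, moderation, array weights, pooled air arrays, array brightness, the samples fitted, arrays with another organ's transcripts, and each array left out. Leaving arrays out of the blood and lung, time and list comparisons, and the single probe sets, were added after seeing the data.

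The rat numbers in the titles pair blood and lung arrays of the same animal. Over 20 such rats, deviations from the group means correlated at −0.059 to 0.087 across genes (median 0.023), and 0 rats exceeded 0.1.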

Additional observations from a re-analysis of the deposited data

Results flagged for a closer look

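In 4 of the 108 sets of 4 or more blood or lung arrays of 1 group that were examined for single far values, 1 array lay far from the others by Dixon's criterion, which chance alone meets in about 1 in 20. Cd3e in blood at 3 h after phosphine was 8.43 in Rat729, with the other 3 rats from 9.0 to 9.08. Prf1 in blood at 6 h after phosphine was 7.89 in Rat789, against 9.30 to 9.53 in the other 4. Cd4 in lung at 1 h after phosphine was 3.51 in Rat710, and Cd2 in lung at 1 h in air was 5.72 in Rat721.

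The blood minus lung difference of the phosphine effect on Cd4 passed the test, at −1.47 at 3 h and −1.16 over the mean of 1 and 3 h on the log2 scale. Cd4 was near background in lung, and both calls ended without the lung arrays that held another organ's transcripts (limma adjusted p = 0.11 and 0.0657). In lung the effect on Cd8a differed between the 4 times (moderated F = 9.09), with 24 h above 3 h by 1.44, and the effect on Gzmb differed between 3 h and 1 h by −2.06.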

How the results depend on the processing

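In blood at 3 h, 0 members passed, against 3 with genes under the 40th percentile left out, 2 with a trended robust fit, 2 with array weights, 1 with pooled air arrays and 0 to 1 with each rat left out in turn (1 without Rat728, Cd8a, or without Rat731, Cd4). Over the mean of 1 and 3 h the 1 member in blood, Cd4, became 0 with quantile normalisation, array weights, pooled air arrays or the 75th percentile as a covariate, and 0 to 1 with each rat left out. That percentile separates the exposures in blood at 3 h. In lung at 3 h, the 3 members became 0 without the arrays that held another organ's transcripts, 1 when fitted on the groups compared alone and 1 to 3 with each rat left out (1 without Rat733, Cd8a). Pooled air arrays gave 1 lung member at 1 h, Cd5, and 2 over the mean of 1 and 3 h, where leaving out each rat gave 0 to 1. For the blood minus lung difference the 1 member became 0 without those organ-mixed lung arrays, at 3 h and over the mean, and 0 with median centring at 3 h. With each rat left out it was 0 to 1 at 3 h, at 6 h and over the mean. Lung time differences gave 1 to 2 members. The causes were not tested. With the rat as a replicate block, Cd4 was −1.47 at 3 h (limma adjusted p = 0.0424) and −1.16 over the mean (adjusted p = 0.0268), and no other call changed. Of the calls, that of Gzmb in lung at 3 h ended with the brighter probe set 1370628_PM_at (−0.85, limma adjusted p = 0.089). By the dim probe set 1371126_PM_x_at it went to 0.00. Values that had not passed also changed sign between probe sets of a gene, among them Gzmb in blood at 3 h (0.77 and 0.26 by the other sets) and Cd3e in lung at 3 h (0.16). The counts at 1 and 6 h in blood and at 6 and 24 h in lung stayed at 0 under every alternative run. Blood had no array with another organ's transcripts, so that alternative gave no value there. Genes near the non-specific signal, such as Cd4 in lung, are limited by background.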
